A study of Mus musculus with 14 samples.

Results

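Activity-regulated early genes are genes whose transcription starts soon after a neuron is driven by its inputs, with no new protein needed to begin. The 35 genes described here were chosen by name from a list of such genes and of targets that follow them. The rule itself used no measured values, but earlier results of these data were known when the genes were chosen. They comprise 16 transcription factors, 3 other nuclear regulators, 8 genes of signalling and stress feedback, and 8 synaptic or secreted effectors. All 35 were found among 55359 deposited gene identifiers, and 34 of them were among the 20330 genes with enough reads to be tested. Ptgs2, the inducible cyclooxygenase, was left out of the tests, with 0 to 11 reads a library.

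Their messenger RNA was measured in the superior colliculus, the midbrain target of the retina, of ICR/CD-1 mouse pups at postnatal day 6. The superficial layer, which receives retinal axons, and the deep layer, which also serves other senses, were sequenced separately. On postnatal day 0 or 1 both the saline and the cbx pups had 0.3 to 0.5 µL pressure-injected through an incised eyelid into the eye, under anaesthesia on ice. The agent was 50 mM carbenoxolone (cbx), a gap junction blocker that the labels name as a means to abolish retinal waves, or saline. Each library was made from the pooled tissue of 3 brains, and the groups were saline superficial (n = 3), cbx superficial (n = 4), saline deep (n = 3) and cbx deep (n = 4). The labels name no transgene, and whether retinal waves were absent at day 6 in these pups was not measured here. Since pools and not single pups were sequenced, p-values measure the spread between pools.

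In neurons, calcium that enters through glutamate receptors and voltage-gated channels activates calmodulin-dependent and MAP kinases. These modify factors already bound at early genes, among them CREB and the serum response factor, and transcription of Fos, Egr and Nr4a family genes follows. The same signals, or the protein products of these genes, also switch on effectors that act at synapses or are secreted, such as Arc, Nptx2, Vgf and Scg2. Phosphatases such as Dusp1 close the kinase cascade again. Before eye opening, waves of firing in the retina are a main drive to the superficial superior colliculus. Many of the same genes also respond to growth factors, injury and stress in glia, vessels and connective tissue.

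Reads assigned to genes numbered 32004952 to 48776827 a library. Tectal markers such as Tfap2b and Pax7 were present in every group, with a summed level of 465 to 492.6 CPM (reads scaled to a common library size) in superficial and 885 to 961 CPM in deep libraries, while cortical and hippocampal markers summed to 9.55 to 19.8 CPM. The 6 cerebellar markers summed to 166 to 198 CPM in superficial and 65.9 to 87.9 CPM in deep libraries. Of the 4 tested, 3 were higher in the superficial layer under both treatments, while Atoh1 and Gabra6 had 0 CPM in every library. The 10 markers of meningeal fibroblasts summed to 499.95 to 1271 CPM in superficial and 40.5 to 71.2 CPM in deep libraries. All 10 were higher in superficial libraries under both treatments, and 5 of the 10 were higher after cbx in the superficial layer. The 8 microglial markers summed to 234 to 257 CPM in saline superficial, 309 to 324 CPM in cbx superficial, 374 to 413 CPM in saline deep and 342 to 385 CPM in cbx deep libraries. The pools also differed in sex: Xist was at 1.94 CPM or less in both libraries of saline pool 1, and the Y-linked Ddx3y had 0 counts in both of cbx pool 4. Where leaving out these single-sex pools ended a call, the value is given. In the remaining pools Ddx3y was at 30.5 to 45.3 CPM in saline and at 16.0 to 38.6 CPM in cbx libraries. Sex was therefore not shown to be balanced between the treatments even without the single-sex pools.

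Per kilobase of exon, which allows genes to be compared, 3 secreted effectors were the most abundant members. Scg2, the granin from which secretoneurin is cut, averaged 51.9 CPM per kb over the 14 libraries. Vgf, a neuropeptide precursor, averaged 49.5 CPM per kb, and Nptx2, a secreted pentraxin that gathers AMPA receptors at synapses, 36.0 CPM per kb. The classical activity markers lay far lower on the same scale. Egr1 averaged 2.13, Fos 1.85, Npas4 1.35 and Arc 1.08 CPM per kb, while Jun, the usual partner of Fos, stood at 13.4 CPM per kb. At the bottom were Nr4a2 with 0.138, Inhba with 0.138, Egr2 with 0.122, Fosb with 0.0675 and Ptgs2 with 0.0301 CPM per kb. Fosb rested on 4 to 27 reads a library, so its differences carry wide errors.

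**Figure D1:**
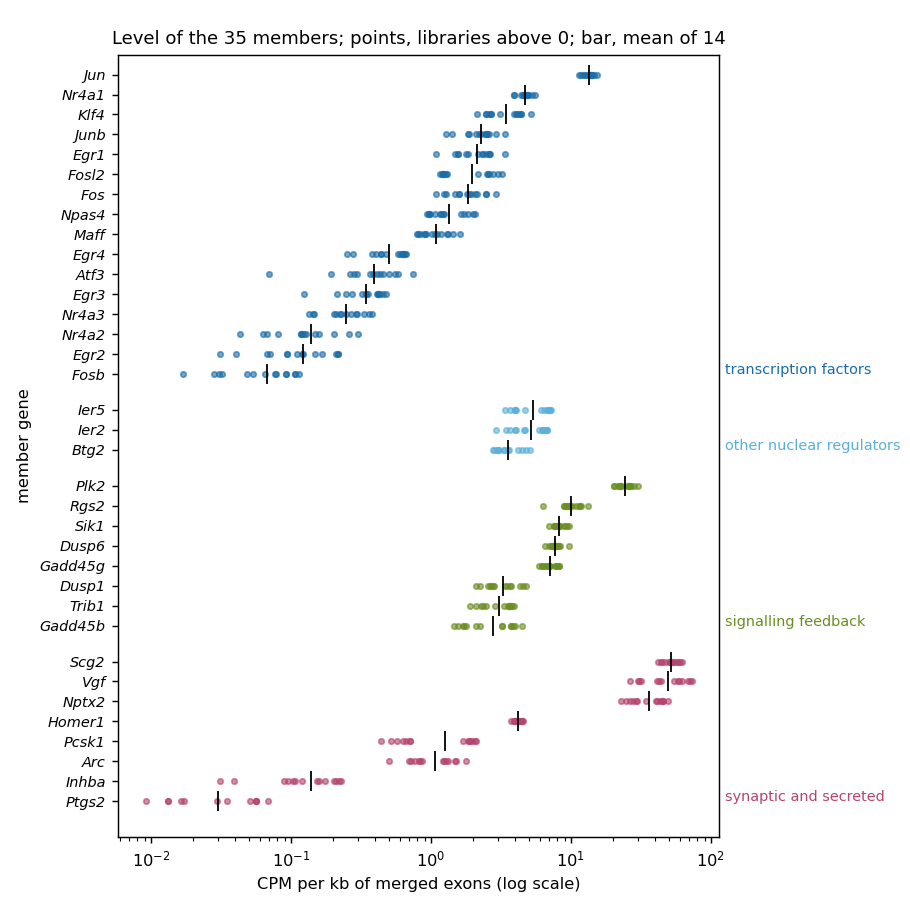
Level of each of the 35 members, by class, in CPM per kilobase of merged exons on a log scale. Each point is a library above 0, and the bar is the mean of all 14 libraries. Scg2 and Vgf sit near 50 CPM per kb and Ptgs2 at 0.0301 CPM per kb.

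The cAMP response element (CRE) is the DNA word bound by CREB, and it is shown here because it is shared by members of 4 classes, whether or not they moved together. In the RefSeq promoter table (build GRCm38.p6), which covers 250 bases before to 50 bases after a gene start, 27 of the 35 members had entries, with 34 promoters in all. Arc, Egr1, Egr3, Ier2, Nptx2, Sik1, Trib1 and Vgf had none. The whole element TGACGTCA, searched on both strands, stood in 6 of the 34 member promoters, which belong to 6 members, against 1.79% of all 32851 promoters of the table. The stretches around it read, 5′ to 3′ on the gene's own strand with the element in capitals, as follows.
Scg2: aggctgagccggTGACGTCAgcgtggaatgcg
Btg2: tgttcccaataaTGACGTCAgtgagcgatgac
Pcsk1: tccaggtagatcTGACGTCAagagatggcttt
Plk2: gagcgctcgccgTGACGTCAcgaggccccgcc
Maff: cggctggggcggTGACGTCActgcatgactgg
Dusp1: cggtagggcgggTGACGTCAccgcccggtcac
The elements lie at chr1:79440087-79440094, chr1:134079314-134079321 and chr17:26508608-26508615 for genes on the minus strand, and at chr13:75089779-75089786, chr13:110394982-110394989 and chr15:79347491-79347498 for genes on the plus strand. They begin 68 bases before the start of Scg2, 166 before Btg2, 143 before Dusp1, 78 before Pcsk1, 62 before Plk2 and 29 before Maff. The half-site TGACG, which is part of the whole element and was counted with it, was in 23 of the 34 member promoters, against 20.8% of all promoters. Those 23 belong to 20 of the 27 members.

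Other words bound by early factors were searched in the same way, on both strands. Neither form of the AP-1 site, TGACTCA or TGAGTCA, occurred in any of the 34 member promoters, against 5.20% of all. The Egr site, GCGGGGGCG or GCGTGGGCG, occurred in 5 of the 34, those of Fosb, Fosl2, Klf4, Maff and Nr4a1, against 3.47% of all. The CArG box of the serum response factor occurred in 4 of the promoters listed for Egr2 and in no other member's, against 1.63% of all. These matches describe letters in a short window and were not tested against any readout.

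The layers gave the most calls among these genes. In saline pools every called regulator was higher in the superficial layer, and every called effector was lower. In saline pools 11 of the 34 tested members were higher in the superficial layer and 4 were lower (edgeR, adjusted p below 0.05), where 9.67% and 8.73% of all tested genes were called in those directions. In cbx pools 11 were higher and 7 lower, where the background was 18.1% and 14.1%. Under both treatments the share of members called lower lay closer to that of all genes than the share called higher did. The 2 comparisons share no libraries. Of the 11 members called higher in each treatment, 9 were called in both, which is 81.8% of each list. All 4 called lower in saline were also called lower in cbx, being 57.1% of that list. The same shares over all tested genes were not computed, so this overlap was not shown to be particular to the members.

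By class, 5 of 16 transcription factors, 2 of 3 nuclear regulators and 4 of 8 feedback genes were higher in the superficial layer of saline pools, and none of these was lower. Of the 7 tested effectors, 0 were higher and 4 lower. In cbx pools 4 transcription factors, all 3 nuclear regulators and 4 feedback genes were higher, 2 feedback genes were lower, and 5 of the 7 effectors were lower. The median log2 difference, superficial minus deep, was 0.09 for transcription factors, 0.57 for nuclear regulators, 0.24 for feedback genes and -0.52 for effectors in saline pools. In cbx pools these medians were 0.35, 0.77, 0.23 and -0.87, while over all genes tested the median was 0.04 in saline and 0.02 in cbx. The median of transcription factors depended on the setting in saline pools, from 0.04 with limma-voom to 0.32 without saline deep replicate 1. It was 0.16 without saline superficial replicate 2, 0.19 without saline superficial replicate 3 and 0.17 without the single-sex pools. In cbx pools it ran from 0.23 (without cbx deep replicate 2) to 0.40. The median of effectors in cbx pools ran from -1.03 to -0.73 over the alternatives. Its main value was that of Inhba, which did not pass and lay at 0.199 to 1.44 CPM. In saline pools the median of effectors was the value of Nptx2 and ran from -0.59 to -0.48. In bulk tissue, fewer cells of a type and less RNA per cell cannot be told apart.

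**Figure D2:**
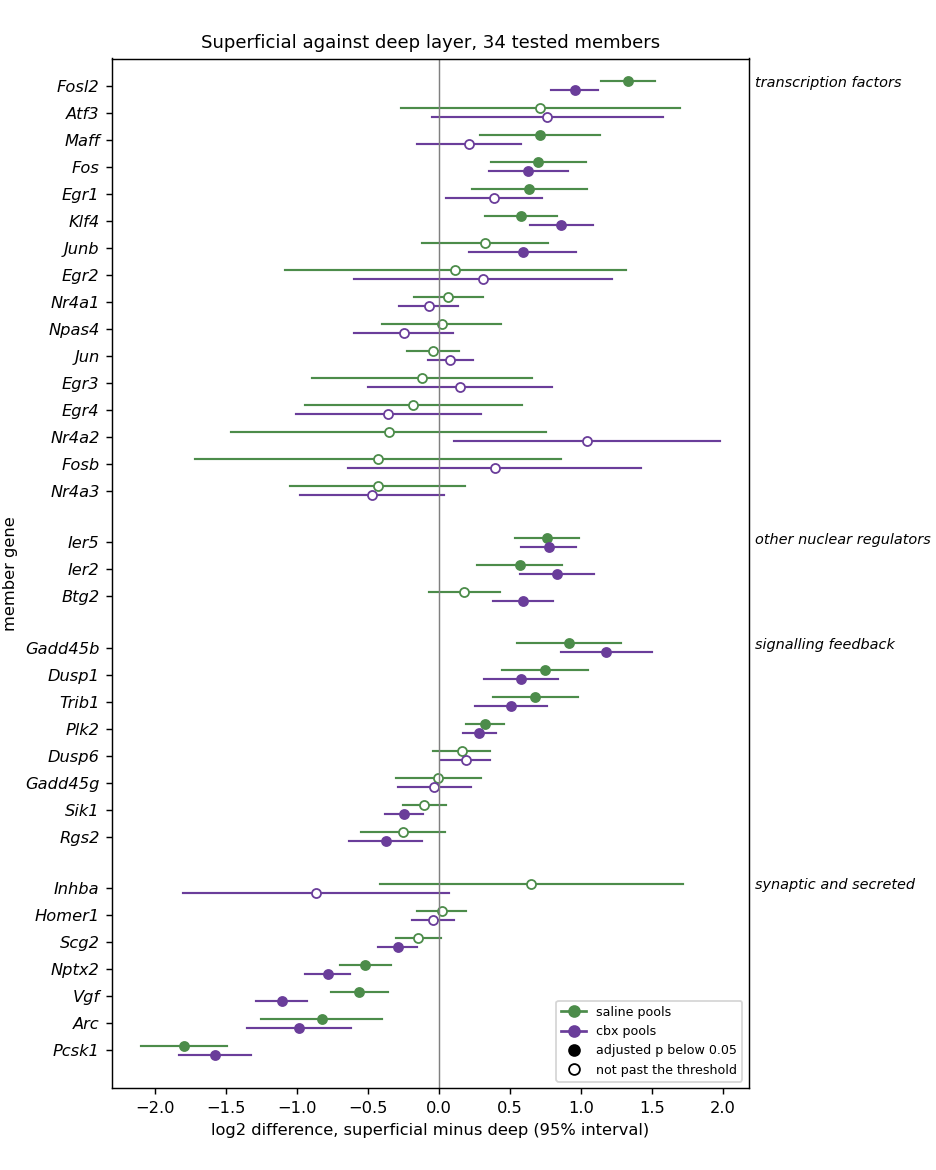
Log2 difference between superficial and deep layers for the 34 tested members, by class, in saline and in cbx pools. Bars are 95% intervals, and filled points passed the threshold of 0.05 on the adjusted p. Regulators with filled points lie to the right of 0 except Sik1 and Rgs2, and effectors with filled points lie to the left.

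Fos, the best known activity marker and a partner of Jun in AP-1, was at 4.57, 4.39 and 4.82 CPM in saline superficial libraries and at 3.02, 2.54 and 2.92 CPM in saline deep ones. After cbx it was at 6.87, 5.80, 4.99 and 5.85 CPM in superficial and 4.23, 3.74, 3.73 and 3.48 CPM in deep libraries. Every superficial library lay above every deep library of its treatment. The difference was 0.70 (SE 0.16, edgeR adjusted p = 0.00339) in saline and 0.63 (SE 0.13, edgeR adjusted p = 0.00112) in cbx pools.

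Fosl2, a relative of Fos that forms a later AP-1 complex, had the largest difference towards the superficial layer in saline pools. Its levels were 28.9, 31.1 and 26.9 CPM in saline superficial against 11.6, 11.2 and 11.7 CPM in saline deep libraries. In cbx pools they were 20.9, 24.2, 24.6 and 24.97 CPM against 12.5, 11.9, 12.04 and 12.3 CPM. The deep libraries stayed within a narrow band and never reached the superficial ones. Superficial exceeded deep by 1.33 (SE 0.092, edgeR adjusted p = 3.19e-09) in saline and by 0.96 (SE 0.079, edgeR adjusted p = 1.67e-08) in cbx, on the log2 scale as throughout.

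Egr1, a zinc finger factor induced with Fos, had 9.68, 7.998 and 11.1 CPM in saline superficial and 6.71, 4.89 and 6.94 CPM in saline deep libraries. Its cbx libraries held 11.7, 11.6, 10.6 and 15.2 CPM in the superficial and 10.4, 7.04, 8.25 and 11.8 CPM in the deep layer. The layers were apart in saline, and overlapped in cbx. The difference was 0.63 (SE 0.19, edgeR adjusted p = 0.0259) in saline and 0.39 (SE 0.16, edgeR adjusted p = 0.0739) in cbx. The saline call was lost without saline deep replicate 2 (edgeR adjusted p = 0.135), saline superficial replicate 1 (0.0656) or replicate 3 (0.112), or the single-sex pools (0.0569). With the pool as a replicate block, which compares layers within same-numbered pools, the cbx difference passed too (edgeR adjusted p = 0.00484), as it did without cbx deep replicate 4 (0.0231). The cbx difference also passed with no low-count filter (edgeR adjusted p = 0.0207) and by limma-voom with the pool correlation (adjusted p = 0.0213).

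Klf4, a zinc finger factor also prominent in vessels, measured 11.9, 13.4 and 12.9 CPM in saline superficial against 9.54, 7.95 and 8.18 CPM in saline deep libraries. Its cbx values were 12.4, 12.6, 13.3 and 15.7 CPM against 7.52, 6.55, 7.55 and 8.13 CPM. No library of either layer crossed into the other's range. The difference was 0.57 (SE 0.12, edgeR adjusted p = 0.00187) in saline and 0.86 (SE 0.11, edgeR adjusted p = 2.91e-06) in cbx.

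Maff, a small Maf protein that pairs with other leucine zipper factors, stood at 4.17, 3.38 and 3.71 CPM in saline superficial and 2.07, 2.66 and 2.15 CPM in saline deep libraries. In cbx pools the values were 3.45, 2.84, 2.09 and 3.07 CPM and 2.77, 2.35, 2.39 and 2.33 CPM. Saline layers were apart and cbx layers overlapped, with differences of 0.71 (SE 0.20, edgeR adjusted p = 0.0168) and 0.21 (SE 0.17, edgeR adjusted p = 0.386). Without saline deep replicate 1 (edgeR adjusted p = 0.0719), deep replicate 3 (0.0665), superficial replicate 1 (0.0745) or the single-sex pools (0.248), the saline call was lost.

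Junb, another AP-1 subunit, was at 5.94, 5.06 and 5.74 CPM in saline superficial and 4.86, 3.26 and 5.23 CPM in saline deep libraries. It was at 6.68, 7.77, 5.64 and 5.78 CPM in cbx superficial and 4.25, 5.68, 4.29 and 2.95 CPM in cbx deep libraries. The groups overlapped under both treatments, with 1 cbx deep library inside the superficial range. The difference was 0.32 (SE 0.21, edgeR adjusted p = 0.342) in saline and 0.59 (SE 0.18, edgeR adjusted p = 0.0173) in cbx. The cbx call did not hold without cbx deep replicate 4 (edgeR adjusted p = 0.0622) or cbx superficial replicate 2 (0.0668), or the single-sex pools (0.0772).

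Of the remaining transcription factors none passed between layers. Jun, with 36.6 to 48.7 CPM over all libraries, differed by -0.04 (SE 0.088, edgeR adjusted p = 0.816) in saline, with a 95% interval of -0.23 to 0.14. Nr4a1, an orphan nuclear receptor at 13.7 to 19.5 CPM, differed by 0.06 in saline (-0.18 to 0.31) and by -0.07 in cbx (-0.28 to 0.13). Npas4 differed by 0.02 in saline (-0.40 to 0.44) and by -0.25 in cbx (-0.60 to 0.10). Fosb, Egr2, Egr3, Egr4, Nr4a2, Nr4a3 and Atf3 did not reach 2.5 CPM in any library and overlapped between layers. Among these the largest difference was that of Nr4a2 in cbx pools, 1.04 (SE 0.45, edgeR adjusted p = 0.0825), which passed without cbx superficial replicate 1 (0.0174) or cbx deep replicate 4 (0.0471).

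The nuclear regulators Ier2 and Ier5 are short-lived transcriptional cofactors of the early response. Ier2 was at 9.54, 8.93 and 10.3 CPM in saline superficial and 7.15, 5.26 and 6.997 CPM in saline deep libraries, and at 10.1, 10.3, 9.56 and 9.48 CPM and 6.06, 5.57, 4.40 and 6.16 CPM in the cbx layers. Ier5 was at 19.9, 22.8 and 21.9 CPM against 12.1, 13.02 and 13.002 CPM in saline, and at 23.8, 23.3, 20.9 and 22.3 CPM against 15.5, 13.02, 11.1 and 13.2 CPM in cbx. Both were higher in every superficial library than in any deep library of the same treatment. Ier2 differed by 0.57 (SE 0.14, edgeR adjusted p = 0.00747) in saline and 0.83 (SE 0.12, edgeR adjusted p = 3.06e-05) in cbx, and Ier5 by 0.76 (SE 0.11, edgeR adjusted p = 3.63e-05) and 0.77 (SE 0.093, edgeR adjusted p = 2.44e-06). Of these 4 calls, that of Ier2 in saline was lost without saline deep replicate 2 (edgeR adjusted p = 0.0569).

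Among feedback genes, Gadd45b, a stress sensor that also takes part in DNA demethylation, showed the largest layer difference. It was at 5.88, 6.32 and 5.14 CPM in saline superficial and 3.31, 2.33 and 3.55 CPM in saline deep libraries. In cbx pools it was at 5.89, 7.14, 5.12 and 6.16 CPM and 2.72, 2.48, 2.68 and 2.83 CPM. The superficial libraries were all above the deep ones, by 0.91 (SE 0.18, edgeR adjusted p = 0.000789) in saline and 1.18 (SE 0.15, edgeR adjusted p = 5.66e-06) in cbx. Its relative Gadd45g lay at 6.90 to 9.64 CPM with differences of -0.01 in saline (-0.31 to 0.29) and -0.03 in cbx (-0.29 to 0.23).

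Dusp1, the phosphatase that switches off MAP kinases, was at 12.1, 14.4 and 14.98 CPM in saline superficial and 7.47, 8.85 and 8.40 CPM in saline deep libraries. After cbx it was at 15.9, 11.5, 11.1 and 12.3 CPM in superficial and 9.26, 9.17, 6.998 and 8.69 CPM in deep libraries. The layers did not overlap, and differed by 0.75 (SE 0.14, edgeR adjusted p = 0.000841) in saline and 0.57 (SE 0.12, edgeR adjusted p = 0.00133) in cbx. Dusp6, which acts on ERK in the cytoplasm, differed by 0.16 (SE 0.097, edgeR adjusted p = 0.309) and 0.19 (SE 0.084, edgeR adjusted p = 0.0988). It passed in cbx pools without cbx superficial replicate 2 (0.0430).

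Trib1, a pseudokinase that marks proteins for degradation, was at 22.02, 22.7 and 23.7 CPM in saline superficial and 18.02, 11.8 and 13.1 CPM in saline deep libraries. Its cbx levels were 22.9, 23.2, 24.4 and 22.6 CPM in the superficial and 20.8, 14.8, 15.5 and 14.2 CPM in the deep layer. Plk2, a kinase that weakens overactive synapses, had 121, 126 and 135 CPM in saline superficial and 99.1, 103 and 103 CPM in saline deep libraries. Both genes were higher in the superficial layer with no overlap. Plk2 in cbx pools stood at 113, 116, 117 and 119 CPM and 98.1, 91.3, 91.3 and 101 CPM. Trib1 differed by 0.68 (SE 0.14, edgeR adjusted p = 0.00184) in saline and 0.51 (SE 0.12, edgeR adjusted p = 0.00329) in cbx. The difference of Plk2 was small and tight, 0.33 (SE 0.064, edgeR adjusted p = 0.00104) and 0.28 (SE 0.056, edgeR adjusted p = 0.000569).

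Sik1 and Rgs2 ran the other way among feedback genes. Sik1, a kinase that restrains the CREB coactivators, was at 41.8, 39.2, 40.4 and 39.03 CPM in cbx superficial and 49.6, 48.3, 46.6 and 45.96 CPM in cbx deep libraries, which did not overlap. In saline it was at 35.7, 42.7 and 38.9 CPM and 41.5, 42.3 and 42.4 CPM, and these overlapped. Sik1 was lower in the superficial layer of cbx pools, with -0.25 (SE 0.063, edgeR adjusted p = 0.00489), while its saline difference of -0.10 (SE 0.073, edgeR adjusted p = 0.383) did not pass. Rgs2, which shortens G protein signals, was at 37.2, 33.5, 35.3 and 22.9 CPM in cbx superficial and 47.6, 42.1, 42.8 and 34.5 CPM in cbx deep libraries. The cbx groups overlapped through a superficial library at 37.2 CPM and a deep one at 34.5 CPM. In saline Rgs2 was at 32.2, 32.4 and 33.5 CPM and 39.5, 41.6 and 35.8 CPM with no overlap. The difference was -0.38 (SE 0.12, edgeR adjusted p = 0.0246) in cbx and -0.25 (SE 0.14, edgeR adjusted p = 0.254) in saline. The saline difference passed with the replicate block (edgeR adjusted p = 0.0241) and with only the groups compared (0.0189). Without cbx deep replicate 1 (0.0790) or 3 (0.0586), or with only the groups compared (0.0714), the cbx call was lost.

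The called effectors were lower in the superficial layer. Pcsk1, the prohormone convertase that cuts neuropeptide precursors, had the largest difference of all members. It was at 2.91, 2.48 and 3.53 CPM in saline superficial and 10.6, 9.43 and 11.02 CPM in saline deep libraries, and at 3.97, 3.73, 3.95 and 3.22 CPM and 11.8, 11.6, 10.3 and 10.7 CPM in the cbx layers. Deep libraries were 3.47-fold higher in saline and 2.99-fold higher in cbx, with no overlap and log2 differences of -1.80 (SE 0.14, edgeR adjusted p = 2.53e-08) in saline and -1.58 (SE 0.12, edgeR adjusted p = 7.01e-09) in cbx.

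Arc, which sits at dendritic spines and drives the uptake of AMPA receptors, was at 2.57, 1.52 and 2.502 CPM in saline superficial and 3.75, 4.05 and 3.88 CPM in saline deep libraries. In cbx pools the levels were 2.65, 2.36, 2.19 and 2.12 CPM and 5.47, 4.64, 4.52 and 3.80 CPM. All deep libraries lay above all superficial ones, the reverse of Fos in the same libraries. The difference was -0.83 (SE 0.20, edgeR adjusted p = 0.00637) in saline and -0.99 (SE 0.17, edgeR adjusted p = 0.000181) in cbx.

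Vgf was at 123, 126 and 131 CPM in saline superficial and 175, 185 and 203 CPM in saline deep libraries, and at 91.4, 93.8, 90.2 and 78.8 CPM and 211, 216, 163 and 174 CPM in the cbx layers. Nptx2 was at 74.4, 75.6 and 86.7 CPM against 110.0, 115 and 115 CPM in saline, and at 66.8, 70.1, 62.9 and 57.6 CPM against 125, 112, 104 and 103 CPM in cbx. Neither gene overlapped between the layers. The fitted gap was wider in cbx pools. The interaction of layer and cbx did not pass for either gene in the main analysis (0.258 for Vgf and 0.559 for Nptx2, edgeR adjusted p), while that of Vgf passed with the replicate block (0.00953) and with no low-count filter (0.0021). Vgf differed by -0.56 (SE 0.097, edgeR adjusted p = 0.00028) in saline and -1.11 (SE 0.085, edgeR adjusted p = 5.69e-09) in cbx. Nptx2 differed by -0.52 (SE 0.086, edgeR adjusted p = 0.00018) in saline and -0.79 (SE 0.075, edgeR adjusted p = 1.13e-07) in cbx.

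Scg2 was at 133, 128 and 136 CPM in saline superficial and 146, 150.4 and 144 CPM in saline deep libraries, and at 112, 110.1, 119 and 105 CPM and 156, 136, 126 and 128 CPM in the cbx layers. Every deep library exceeded the superficial ones of its treatment, although only the cbx difference of -0.29 (SE 0.066, edgeR adjusted p = 0.00192) passed and that in saline was -0.15 (SE 0.076, edgeR adjusted p = 0.204). Homer1, a postsynaptic scaffold, lay at 44.6 to 54.0 CPM in both layers, with a saline difference of 0.02 (95% interval -0.15 to 0.19) and a cbx difference of -0.04 (-0.19 to 0.10). The deposited counts are per gene, so its short activity-induced isoform was not separated. Inhba, an activin subunit at 0.199 to 1.44 CPM, differed by 0.65 in saline and -0.87 in cbx, and neither passed. Without cbx superficial replicate 4 the cbx difference of Inhba was -1.63 (edgeR adjusted p = 0.00615). It passed in 4 of 16 alternatives, the others being limma-voom, limma-voom with the pool correlation, and the fit without the single-sex pools.

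**Figure D3:**
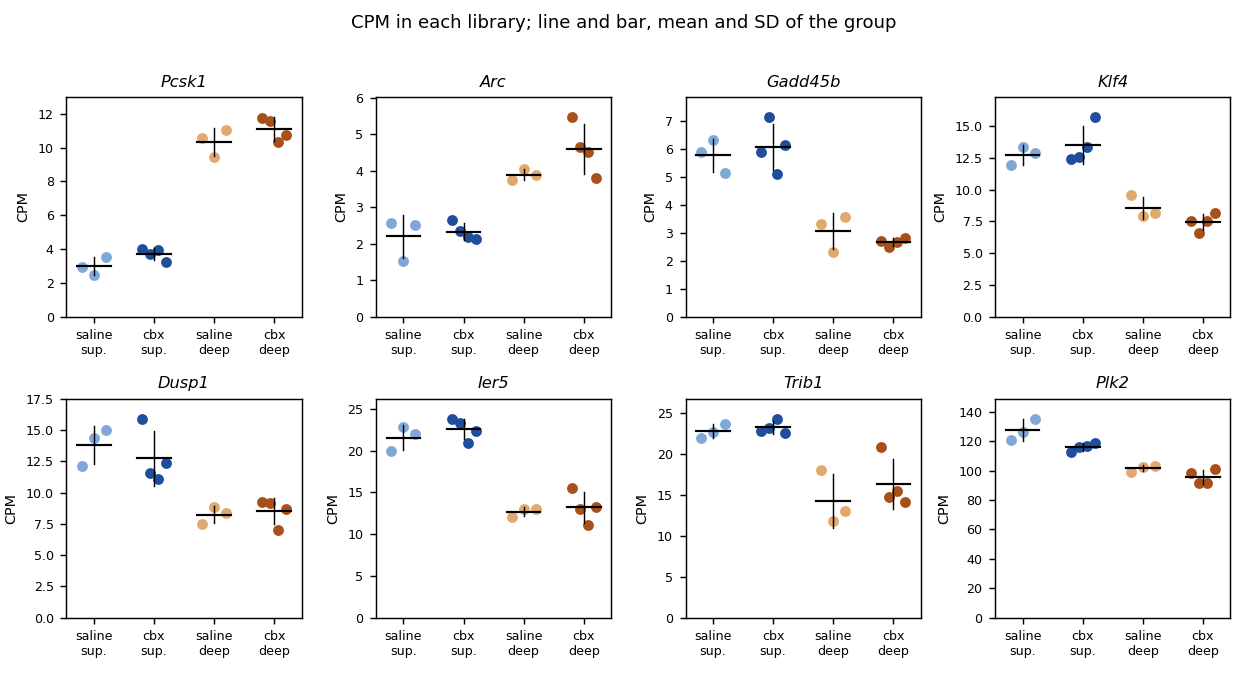
CPM of 8 members in each of the 14 libraries, by group, with each axis starting at 0. Points are libraries, the horizontal line is the group mean and the vertical bar its SD. Pcsk1 and Arc are higher in deep libraries, and the other 6 genes are higher in superficial libraries.

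Markers of other cell types moved with these layer differences. Besides the meningeal markers given above, the 8 endothelial markers summed to 336 to 416 CPM in superficial and 188 to 256 CPM in deep libraries, with 5 higher and 1 lower under each treatment. The 8 pericyte and mural markers summed to 455 to 620 CPM in superficial and 255 to 339 CPM in deep libraries. Of these 8, 3 were higher and 0 lower in saline, and 4 higher and 1 lower in cbx. Much of the gap in the sum came from Vtn, with group means of 157 and 234 CPM in superficial against 28.9 and 25.0 CPM in deep libraries. The 8 microglial markers went the other way in saline, with 7 of 8 lower in the superficial layer and a median log2 difference of -0.61. In cbx pools 3 were lower and 1 higher, with a median of -0.04. The 8 astrocyte markers summed to 2698 to 3500 CPM in superficial and 1889 to 2690 CPM in deep libraries, with Gfap at group means of 455 and 478 CPM against 6.73 and 10.7 CPM. Of these 8, 2 were higher and 2 lower in saline, and 4 higher and 1 lower in cbx. The 8 oligodendrocyte lineage markers summed to 617 to 873 CPM in superficial and 969 to 1228 CPM in deep libraries, with 4 lower and 1 higher in saline and 6 lower and 0 higher in cbx. The 7 red blood cell markers summed to 149 to 231 CPM in saline superficial and 238 to 389.9 CPM in cbx superficial libraries, and to 127 to 188 CPM in deep libraries. Between layers 0 were called in saline, and 6 were higher and 0 lower in cbx. After cbx all 7 were above 0 in the superficial layer, with a median of 0.80, and 1 was called higher. No marker of the meningeal, endothelial, mural, microglial, astrocyte or oligodendrocyte lists was at 0 in a whole group. The 10 neuronal markers summed to 5005 to 5426 CPM in superficial and 5267 to 5882 CPM in deep libraries, but single genes went both ways, 2 higher and 2 lower in saline and 2 higher and 5 lower in cbx. In saline pools Gad1, of inhibitory neurons, averaged 560.4 CPM in superficial and 288 CPM in deep libraries, and Slc17a6, of excitatory neurons, 201 and 393 CPM. Slc32a1, also of inhibitory neurons, differed less there, with averages of 143 CPM in superficial and 124 CPM in deep libraries. The part of these cells in the members' differences was not tested.

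Other genes of the pathway differed by layer too. Of 43 further early and MAP kinase feedback genes, 10 were higher and 2 lower in the superficial layer of saline pools, and 17 and 3 in cbx pools. Dusp5, a nuclear ERK phosphatase, was higher by 0.97 (SE 0.17, edgeR adjusted p = 0.000388) in saline. Of 43 upstream kinases and factors, 8 were higher and 7 lower in saline, and 12 and 10 in cbx. Of 16 further secretory granule genes, 9 were lower and 1 higher in the superficial layer of saline pools, and 10 and 2 in cbx pools. Pcsk2, the convertase that acts after Pcsk1, was lower by 0.70 in saline (log2 difference -0.70, SE 0.070, edgeR adjusted p = 4.31e-07) and by 0.80 in cbx (-0.80, SE 0.060, edgeR adjusted p = 4.42e-09). The background shares of all tested genes given above apply to these counts.

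After cbx, in the superficial layer 1 of 34 members was higher and 2 were lower (edgeR, adjusted p below 0.05), against 2.68% and 1.65% of all tested genes. In the deep layer 1 was higher and 0 were lower, against 1.06% and 0.777%. At an unadjusted p below 0.05 the numbers were 12 of 34 members in the superficial layer, where 20.6% of all genes reached it, and 5 of 34 in the deep layer, where 15.3% did. The share of members called higher was near that of all genes in the superficial layer. The same saline and cbx libraries also enter the layer comparisons.

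Most transcription factors had a difference above 0 after cbx, and of these 1 passed, Npas4 in the deep layer. The log2 difference, cbx minus saline, was above 0 for 14 of 16 transcription factors in the superficial and 13 of 16 in the deep layer, with medians of 0.35 and 0.20. Over the 15 alternatives of each layer these medians ran from 0.24 to 0.43 and from 0.08 to 0.29, the lowest of the deep layer being without saline deep replicate 1. Without the single-sex pools they were 0.33 and 0.19. Over all genes tested the medians were 0.01 and 0.01, with 10480 and 10469 of 20330 above 0. Effectors had a median of -0.25 in the superficial layer, with 5 of 7 below 0, and of 0.03 in the deep layer (0.01 to 0.11 over the alternatives). Feedback genes had medians of 0.00 (-0.05 to 0.05) and 0.05 (0.02 to 0.08), and nuclear regulators of 0.07 (0.04 to 0.11) and 0.04 (-0.05 to 0.08).

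**Figure D4:**
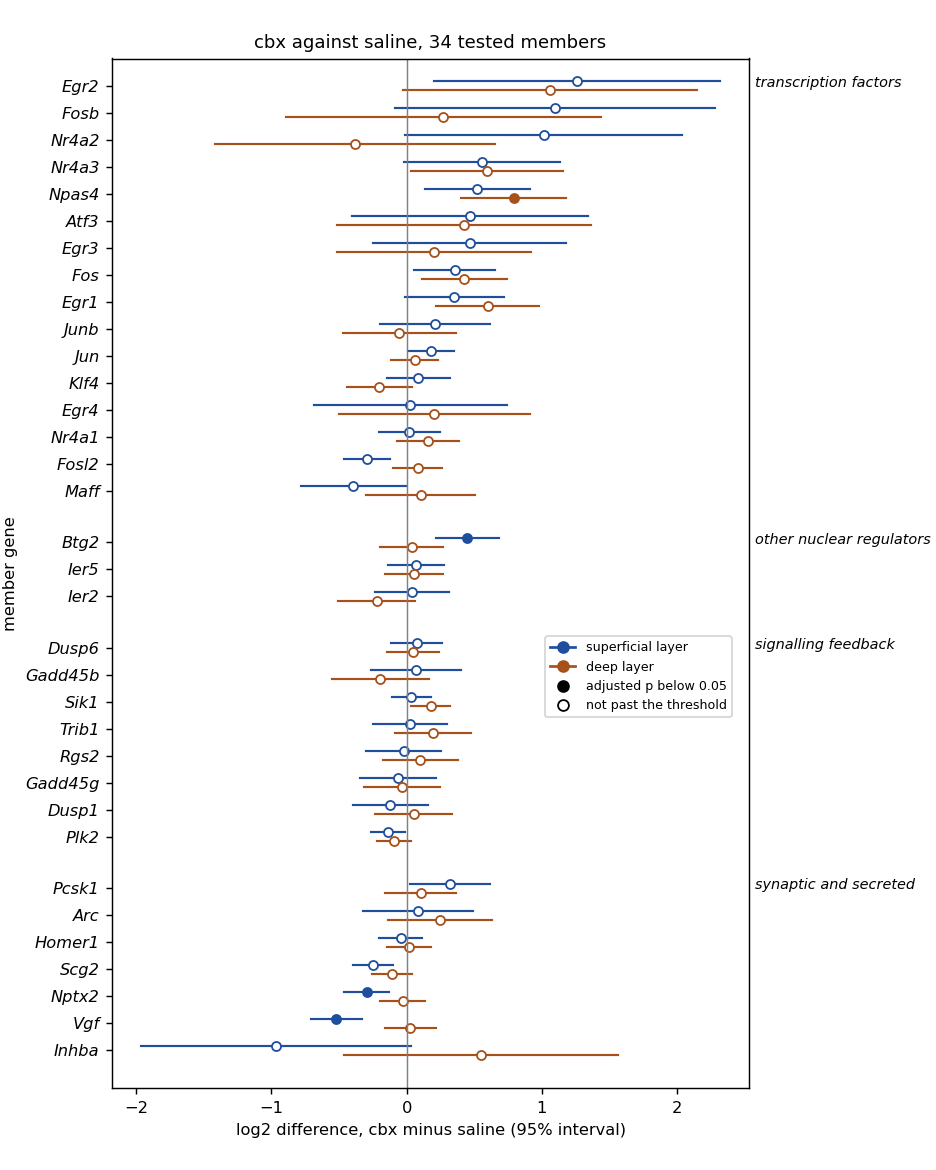
Log2 difference between cbx and saline for the 34 tested members, by class, in the superficial and in the deep layer. Bars are 95% intervals, and filled points passed the threshold of 0.05 on the adjusted p. Filled points are Btg2, Nptx2 and Vgf in the superficial layer and Npas4 in the deep layer.

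Vgf was the member with the smallest p in the superficial layer, where the 4 cbx libraries, at 91.4, 93.8, 90.2 and 78.8 CPM, all lay below the 3 saline libraries at 123, 126 and 131 CPM. The log2 difference was -0.52 (SE 0.091, edgeR adjusted p = 0.00448), a fold of 0.698. This call held in 14 of 15 alternative analyses, among them each of the 7 that left out 1 library. It was lost when the single-sex pools were left out together, with a difference of -0.49 (edgeR adjusted p = 0.0554). Deep libraries of cbx and saline overlapped, and their difference was 0.03 (SE 0.090, edgeR adjusted p = 0.935), with a 95% interval of -0.16 to 0.22.

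Nptx2 was at 66.8, 70.1, 62.9 and 57.6 CPM in cbx superficial libraries and at 74.4, 75.6 and 86.7 CPM in saline ones, with no overlap. The difference was -0.29 (SE 0.080, edgeR adjusted p = 0.0439). Leaving out any saline superficial library ended the call (edgeR adjusted p = 0.0650 without replicate 1, 0.103 without replicate 2 and 0.1796 without replicate 3), as did leaving out cbx superficial replicate 3 (0.0701) or 4 (0.0889), or the single-sex pools (0.175). Deep libraries of Nptx2 differed by -0.03 (-0.20 to 0.14).

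Scg2 and Fosl2 missed the threshold narrowly in the superficial layer. Scg2 was at 112, 110.1, 119 and 105 CPM after cbx against 133, 128 and 136 CPM after saline, and Fosl2 was at 20.9, 24.2, 24.6 and 24.97 CPM against 28.9, 31.1 and 26.9 CPM. For both genes every cbx library was below every saline library. The differences were -0.25 (SE 0.071, edgeR adjusted p = 0.0517) and -0.29 (SE 0.083, edgeR adjusted p = 0.0502). DESeq2 called both (adjusted p = 0.0255 for Scg2 and 0.0178 for Fosl2), and leaving out cbx superficial replicate 3 gave Scg2 an edgeR adjusted p of 0.0427. Fosl2 also passed with size factors by median of ratios (edgeR adjusted p = 0.0490). Limma-voom called it too (adjusted p = 0.0413), also with the pool correlation (0.0444). Among deep libraries Scg2 differed by -0.10 (-0.25 to 0.04) and Fosl2 by 0.08 (-0.10 to 0.26).

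Among 16 further secretory granule genes 15 had a superficial cbx difference below 0, with a median of -0.14, and 1 was called, Nptxr, the membrane-bound neuronal pentraxin (-0.30, SE 0.062, edgeR adjusted p = 0.0121). In the deep layer 14 of the 16 were below 0 with a median of -0.11. The summed neuronal markers of superficial libraries were 5182 to 5426 CPM after saline and 5005 to 5102 CPM after cbx. Microglial markers were higher after cbx there for 6 of 8 genes. Their part in the effectors' differences was not tested.

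Btg2, an antiproliferative cofactor found in neural progenitors and induced by p53 and by activity, was the member that rose in the superficial layer. The cbx libraries were at 13.1, 14.02, 11.5 and 12.3 CPM, all above the saline libraries at 9.74, 9.06 and 9.14 CPM. It was higher by 0.45 (SE 0.11, edgeR adjusted p = 0.0275), a fold of 1.37. The call was lost without saline superficial replicate 1 (edgeR adjusted p = 0.0615), replicate 2 (0.117) or replicate 3 (0.0913), without cbx superficial replicate 2 (0.0693), and without the single-sex pools (0.138). In the deep layer Btg2 was at 9.93, 7.67, 7.73 and 8.37 CPM after cbx and 8.23, 8.16 and 8.29 CPM after saline, groups that overlapped, with a difference of 0.04 (SE 0.11, edgeR adjusted p = 0.93). In the cbx superficial libraries 6 of 8 microglial and 5 of 10 meningeal markers were also higher, and their part in the rise of Btg2 was not tested. Its layers differed by 0.59 (SE 0.10, edgeR adjusted p = 0.000144) in cbx and 0.18 (SE 0.12, edgeR adjusted p = 0.359) in saline. The promoter of Btg2, shown since it holds the whole CRE, lies on the minus strand at chr1:134079106-134079405 (GRCm38.p6), with the element in capitals.
Btg2: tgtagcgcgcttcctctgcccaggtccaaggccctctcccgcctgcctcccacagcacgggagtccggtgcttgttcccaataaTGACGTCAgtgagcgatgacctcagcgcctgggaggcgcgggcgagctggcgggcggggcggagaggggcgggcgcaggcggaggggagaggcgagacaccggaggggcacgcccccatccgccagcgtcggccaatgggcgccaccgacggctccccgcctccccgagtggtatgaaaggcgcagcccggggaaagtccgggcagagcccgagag

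Npas4, a factor induced in neurons by calcium and that organises inhibitory synapses, was the member that rose in the deep layer. The cbx deep libraries were at 5.11, 8.46, 7.14 and 8.19 CPM and the saline ones at 4.01, 4.44 and 4.05 CPM, and every cbx library was higher. It was higher by 0.79 (SE 0.19, edgeR adjusted p = 0.0353), a fold of 1.73. The call was lost without saline deep replicate 1 (edgeR adjusted p = 0.131), 2 (0.112) or 3 (0.129), without cbx deep replicate 2 (0.119), 3 (0.0625) or 4 (0.0836), without the single-sex pools (0.266) and by limma-voom (0.0793). In the superficial layer Npas4 was at 7.63, 5.04, 4.89 and 6.72 CPM after cbx and 4.77, 3.999 and 3.90 CPM after saline, again with no overlap. That difference was 0.52 (SE 0.19, edgeR adjusted p = 0.113), and it passed with no low-count filter (0.0497). The interaction of layer and cbx was -0.27 (-0.81 to 0.28), so the rise of Npas4 was not shown to differ between layers. The promoter of Npas4 lies on the minus strand at chr19:4989922-4990221 (GRCm38.p6), and holds a pair of CRE half-sites on opposite strands, in capitals, and no whole element.
Npas4: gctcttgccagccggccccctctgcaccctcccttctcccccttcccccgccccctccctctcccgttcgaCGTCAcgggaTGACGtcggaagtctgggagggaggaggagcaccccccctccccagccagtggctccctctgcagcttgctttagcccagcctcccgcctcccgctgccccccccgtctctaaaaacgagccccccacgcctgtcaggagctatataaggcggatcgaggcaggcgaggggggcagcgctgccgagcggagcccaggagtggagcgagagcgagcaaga

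Fos and Egr1 had higher means after cbx in both layers without passing. Fos libraries did not overlap between treatments in either layer, with 6.87, 5.80, 4.99 and 5.85 CPM against 4.57, 4.39 and 4.82 CPM in the superficial layer and 4.23, 3.74, 3.73 and 3.48 CPM against 3.02, 2.54 and 2.92 CPM in the deep layer. The differences were 0.35 (SE 0.14, edgeR adjusted p = 0.163) and 0.43 (SE 0.15, edgeR adjusted p = 0.162). Egr1 overlapped in the superficial layer and not in the deep one, with differences of 0.35 (SE 0.17, edgeR adjusted p = 0.263) and 0.60 (SE 0.18, edgeR adjusted p = 0.0995). DESeq2 called the deep difference of Egr1 (adjusted p = 0.0418), as did edgeR with no low-count filter (adjusted p = 0.00427). No setting called Fos in either layer.

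**Figure D5:**
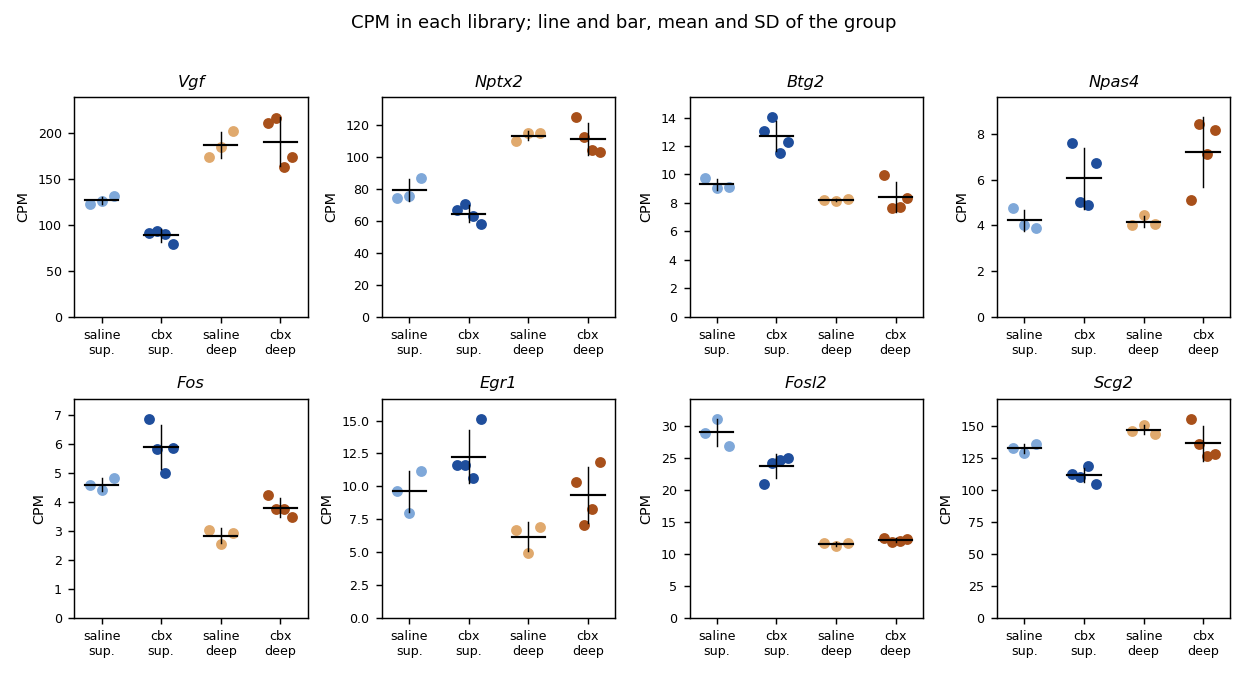
CPM of 8 members in each of the 14 libraries, by group, with each axis starting at 0. Points are libraries, the horizontal line is the group mean and the vertical bar its SD. In the superficial layer the cbx libraries of Vgf, Nptx2, Scg2 and Fosl2 lie below those of saline, and those of Btg2, Npas4 and Fos above.

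Arc showed no separation of treatments in the superficial layer. It was at 2.65, 2.36, 2.19 and 2.12 CPM in cbx and 2.57, 1.52 and 2.502 CPM in saline superficial libraries, which overlapped, and differed by 0.08 (SE 0.19, edgeR adjusted p = 0.852) there and by 0.25 (SE 0.18, edgeR adjusted p = 0.584) in the deep layer. The 95% intervals were -0.32 to 0.49 and -0.14 to 0.63. In the superficial layer the scarcest factors had the largest fitted differences and the widest errors. Egr2, at 0.105 to 0.741 CPM, differed by 1.26 (SE 0.51, edgeR adjusted p = 0.159) in the superficial and 1.06 (SE 0.52, edgeR adjusted p = 0.339) in the deep layer. Fosb, at 0.105 to 0.711 CPM, differed by 1.09 (-0.09 to 2.28) and 0.27 (-0.89 to 1.44). Inhba differed by -0.97 in the superficial layer, and was called there without cbx superficial replicate 4 alone (log2 difference -1.73, edgeR adjusted p = 0.0353).

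The remaining differences were small. The 8 feedback genes had superficial differences between -0.13 and 0.07 and deep differences between -0.19 and 0.20, and none passed. Plk2 was lower in every cbx superficial library than in any saline one, at 113, 116, 117 and 119 CPM against 121, 126 and 135 CPM, a difference of -0.13 (SE 0.060, edgeR adjusted p = 0.211). Sik1 was higher in every cbx deep library, at 49.6, 48.3, 46.6 and 45.96 CPM against 41.5, 42.3 and 42.4 CPM, a difference of 0.18 (SE 0.069, edgeR adjusted p = 0.201). Jun lay above its saline range in all cbx superficial libraries, at 44.2, 48.7, 44.1 and 44.9 CPM against 37.6, 39.03 and 43.8 CPM, with 0.18 (SE 0.082, edgeR adjusted p = 0.221). None of these 3 differences passed over all genes.

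Whether cbx acted differently in the 2 layers was tested by their interaction. By edgeR with the low-count filter and no block, no member and no gene passed, with 5 of 34 members and 8.36% of all genes at an unadjusted p below 0.05. DESeq2 called 1 member and 60 genes, and limma-voom 0 and 0. The member was Vgf, whose interaction of -0.55 (SE 0.13, edgeR adjusted p = 0.258) had the smallest p of the members. Its cbx difference was -0.52 in the superficial and 0.03 in the deep layer. With the pool as a replicate block the interaction of Vgf was -0.54 (edgeR adjusted p = 0.00953), with DESeq2 it was -0.55 (adjusted p = 0.0416), and with limma-voom -0.54 (adjusted p = 0.308). The next members were Fosl2 with -0.37 (SE 0.12, edgeR adjusted p = 0.426) and Btg2 with 0.41 (SE 0.16, edgeR adjusted p = 0.498). For Nptx2 the interaction was -0.27 (SE 0.11, edgeR adjusted p = 0.559), so its superficial fall was not shown to be particular to that layer.

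In the wider pathway, of 43 further early and MAP kinase feedback genes, 2 were higher and 2 lower in the superficial layer, and 1 was higher and 0 were lower in the deep layer. Over all genes tested the shares were 2.68% higher and 1.65% lower in the superficial and 1.06% and 0.777% in the deep layer. Ccn2, a matricellular gene of fibroblasts and other cells, was higher by 1.29 in the superficial layer (SE 0.25, edgeR adjusted p = 0.00913). Dusp4, a nuclear MAP kinase phosphatase, was lower there (-0.54, SE 0.12, edgeR adjusted p = 0.0151), as was Bhlhe40, a clock-linked repressor (-0.37, SE 0.081, edgeR adjusted p = 0.0163). Of 43 upstream kinases and factors 2 were higher and 2 lower in the superficial layer. The 8 heat shock genes, a sign of tissue stress, summed to 920 to 1041 CPM in saline superficial and 995 to 1202 CPM in cbx superficial libraries. In deep libraries they summed to 1016 to 1097 CPM after saline and 978 to 1195 CPM after cbx. Most of each sum was Hspa8, with group means of 724 to 812 CPM. After cbx 7 of the 8 were above 0 in the superficial layer (median 0.15) and 5 in the deep layer (median 0.01), and 0 were called in either.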

How the data were processed

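The authors deposited whole-number counts of reads per Ensembl gene for each of 14 libraries. Per the labels' protocols, RNA of pooled tissue was poly-A selected and read as pairs of 150 bases. The submitters' processing notes name STAR 2.7.9d, featureCounts, Subread 2.0.1, FastQC 0.11.9 and SAMtools 1.14, and the builds GRCm39 and mm10 without a role. For the counting, the strand setting is not given in the sources used here. Antisense reads cannot be told apart. Symbols were matched for 52083 IDs, holding 98.7% of counts.

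Counts were fitted with edgeR 4.0.16 in R 4.3.3 (filterByExpr with a minimum count of 10, TMM, robust quasi-likelihood, 4 group means, 10 residual degrees of freedom). P-values were adjusted by Benjamini-Hochberg over 20330 genes. CPM used TMM-scaled library sizes, and per-kb levels used GENCODE M21 exons. The members and lists were chosen with earlier results of these data known. By rule, members called in any of 5 comparisons, with Fos, Egr1, Npas4 and Arc, are given library by library. Alternatives were DESeq2 1.42.0, limma-voom (limma 3.58.1), no filter, size factors by median of ratios, a fit to the compared groups alone, a replicate block, and leaving out each library or the single-sex pools. Class medians under these were added after the data were seen.

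Replicate numbers come from the titles. Whether a number stands for the same brains is not in the labels. Deviations from group means of same-numbered libraries of both layers correlated at 0.00501 to 0.180 in 7 pairs over all tested genes, which does not exceed 0.1 in every pair. Over the 12006 genes with a mean of at least 5 CPM they correlated at 0.301 to 0.588. That second gene set was chosen after the first value and the blocked counts had been seen, so it does not settle the pairing. Ddx3y had 0 counts in both layers of cbx pool 4, and Xist was near 0 in both of saline pool 1. The fit without the block is therefore the main one, and blocked values stand beside the layer results they change. Same-numbered libraries of the 2 treatments correlated at -0.108 to 0.00689 and share only a number. No 2 libraries of a group agreed within sampling noise (chi-square of 7.16 or more per gene).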

Additional observations from a re-analysis of the deposited data

Results flagged for a closer look

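Of 70 sets of libraries examined, each holding the 4 libraries of a cbx group for 1 member, 1 set had a library standing apart from the rest. Saline groups, with 3 libraries each, were not examined. Maff in cbx deep libraries was at 2.77 CPM in replicate 1 and at 2.33 to 2.39 CPM in the other 3. The gap was 0.856 of the whole range, above the critical share of 0.829 for 4 libraries. Chance alone flags about 1 in 20 such sets.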

How the results depend on the processing

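Of 37 calls of members, 28 held under every alternative run (12 of 15 layer calls in saline pools, 16 of 18 in cbx pools, 0 of 3 cbx calls in the superficial and 0 of 1 in the deep layer), and 0 turned direction. Members called after cbx in the superficial layer, 3 in the main analysis, were 5 with DESeq2, 1 with only the groups compared, 0 without the single-sex pools and 1 to 3 when 1 library was left out. In the deep layer, 1 became 2 with no filter and 2 with DESeq2, 0 with limma-voom, 0 with limma-voom and the pool correlation as a replicate block, 0 with the replicate number as a block, 0 without the single-sex pools, and 0 to 1 with 1 library left out. Layer calls kept within 13 to 16 of 15 in saline and 17 to 20 of 18 in cbx pools. The interaction called 1 member, Vgf, with no filter, with DESeq2 and with the replicate block.

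Over all genes, the superficial cbx count of 880 became 1459 with no filter, 1504 with DESeq2, 140 with only the groups compared, 480 with the replicate block, 86 without the single-sex pools and 158 to 908 with 1 library left out (394, 158 and 237 without saline superficial replicate 1, 2 and 3). The deep count of 373 became 566, 791, 610, 191, 14 and 43 to 273 under the same settings (126, 76 and 43 without saline deep replicate 1, 2 and 3, 109 without cbx deep replicate 2 and 224 without cbx deep replicate 4). The saline layer count of 3739 became 2141 without the single-sex pools. The interaction count of 0 became 256 with no filter, 60 with DESeq2, 5 with limma-voom and the pool correlation, 61 with the replicate block, and 0 to 14 with 1 library left out (14 without cbx superficial replicate 2, 1 without cbx superficial replicate 4). The causes were not tested, beyond the fewer libraries where some were left out.

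The replicate block across treatments, whose numbers do not pair the samples, ended the calls of Nptx2 (edgeR adjusted p = 0.111) in the superficial and Npas4 (0.0985) in the deep layer. Between layers it added Rgs2 in saline and Egr1 in cbx pools and removed no member. Where 1 library of a group of 3 was left out, the fit borrowed the spread of all groups. Members under 1 CPM, such as Fosb, Egr2, Nr4a2 and Inhba, rested on few reads, and depth limits what their differences can show.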
